A study of Bos taurus with 20 samples.

Results

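The genes described here are transcription factors that pattern the embryo: the HOX genes of the A, B, C and D clusters, the MEIS, PBX, PITX, LHX and IRX homeobox genes, and the PAX, TBX and SOX families together with SIX2, SIX3, SIX4 and SIX5, sine oculis homeobox genes. They were chosen by the gene symbol of the platform annotation, as every symbol beginning with HOXA to HOXD, MEIS, PITX, LHX, IRX or PBX, or consisting of PAX, TBX, SOX or the sine oculis stem and a number. For each gene the array row with the highest mean over 20 columns was used. This gave 66 genes from 72 rows, of 11329 annotated genes on 21475 rows. There were 26 HOX genes (5 HOXA, 6 HOXB, 6 HOXC and 9 HOXD), 11 TBX, 7 SOX, 5 LHX, 5 PAX, 5 MEIS or PBX, 4 sine oculis (SIX2 to SIX5) genes, 2 PITX genes and 1 IRX gene. One symbol of the PBX group, PBXIP1, is a protein that binds PBX factors and is not itself a homeobox gene. Other genes of these families, PAX3, PAX7 and SOX9 among them, were not analysed here.

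RNA was taken from longissimus dorsi (LD), the long muscle beside the spine, of 2 kinds of crossbred cattle, the first Piedmontese by Hereford, the other Wagyu by Hereford. Fetuses were sampled at 60, 135, 195 and 280 days, and cattle after birth at 3, 7, 12, 20, 25 and 30 months. The authors gave a single column of values for each age of each cross, which makes 20, and a column stands for 3 animals before birth or 4 after it. Whether the same cattle were sampled at several ages is not stated. The Hereford side is shared by all columns, and Piedmontese cattle are known for an inactive myostatin and heavy muscling, Wagyu cattle for fat within muscle.

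HOX genes lie in 4 clusters and are switched on in the order of their place in the cluster, so that the set of HOX proteins in a cell marks its position along the body axis and the limb. MEIS and PBX proteins bind DNA together with HOX proteins. PAX, sine oculis, PITX and TBX factors set up muscle precursors, vertebrae, limbs and sense organs, while the SOX family includes regulators of cartilage, nerve sheath and blood vessels. In adult muscle, cells keep part of the HOX code of their origin, and a few of these factors act in fibre type and in the satellite cells that repair muscle.

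Values are read as log2 units on the deposited scale. A difference is given in those units with ± 1 standard error (SE) of the limma fit, which pools its residual over all ages. With 1 column per cross and age, this residual is the disagreement between the crosses, not the spread among animals. The standard deviation of the gap between crosses over annotated genes was 0.39 to 0.59 at the fetal ages and 0.28 to 0.37 after birth. An SE between fetal ages may thus be too small. A change was called where the Benjamini-Hochberg adjusted p over all 21475 rows was at or under 0.05. Column medians ran from 5.88 to 7.36 and were lower after 60 days, so a second count was kept of genes called in the same direction on the deposited values, after quantile normalisation and after centring each column on its median. The median of all rows for 280 minus 60 days was −0.34 as deposited, 0.15 after quantile normalisation and 0.89 after centring. Of the 66 genes, 22 had means in the lowest 25% of rows, among them all 5 LHX genes. As the samples are whole muscle, fewer cells of a type and less RNA per cell cannot be told apart.

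The levels of cell type markers changed with age, a limit on every result below. The mean level of 6 cartilage markers went from 12.4 at 60 days to 4.32 at 280 days, that of 6 neuron markers from 9.93 to 5.35, that of 9 epidermis markers from 8.52 to 4.96, that of 6 fibroblast markers from 16.9 to 12.5 and that of 6 markers of dividing cells from 10.9 to 3.19. The mean of 9 muscle fibre markers went up from 14.2 to 19.6. At 60 days the crosses also differed: the neuron markers averaged 11.9 in the Piedmontese column and 7.92 in the Wagyu column, with all 6 higher in the Piedmontese, and 5 of 6 cartilage markers were higher there, while all 9 muscle fibre markers were lower. The part of tissue makeup in the changes of the 66 genes was not tested.

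Most of these genes changed with age, as did most annotated genes. By the F test over ages 61 of 66 were called, near the share of annotated genes, 88.7%. The 5 that were not called were HOXB1, SIX4, TBX2, TBX4 and TBX5, whose age means ranged over no more than 0.91. The largest range of age means was that of HOXD10, at 6.97, followed by PAX2 at 6.72 and MEIS2 at 6.43. The highest age mean fell at 60 days for 27 of the 66 genes (40.9%), against 31.3% of annotated genes, and at 20 months for 0.

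From 60 to 280 days of gestation 31 genes fell and 13 rose, where 42.5% of annotated genes fell and 20.7% rose. Under all 3 scalings 16 fell and 13 rose, against 22.3% and 19.9% of annotated genes. The shares of the 66 genes were thus near those of all genes, and the sizes and the members differed by family. The median of the 66 was −0.54, beside −0.32 for annotated genes.

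All 5 measured HOXA genes fell on the deposited values, and 4 of them fell under all 3 scalings, beside 42.5% and 22.3% of annotated genes. HOXA10 stood at 12.56, 11.19, 9.65 and 7.33 at the 4 fetal ages in the Piedmontese columns and at 11.56, 10.28, 10.05 and 8.95 in the Wagyu columns, and was highest at 60 days in both crosses. Its change was −3.92 ± 0.42 (limma adjusted p = 2.84e-07). HOXA2, the most anterior of the measured HOXA genes, fell by 3.47 ± 0.29, from 10.49 and 10.57 to 6.88 and 7.25. HOXA5, which in mouse helps set the identity of neck and upper thoracic vertebrae, fell by 3.43 ± 0.33. HOXA9 fell by 1.78 ± 0.26, and all 4 of its rows fell. HOXA4 fell by 0.93 ± 0.33 as deposited but stood at +0.11 and +0.30 after quantile normalisation and centring, so its direction is not settled.

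HOXB, HOXC and HOXD were mixed. In HOXB, 2 of 6 genes fell under all 3 scalings and 1 rose: HOXB8 fell by 2.33 ± 0.33, HOXB3 by 1.88 ± 0.26, and HOXB7 rose by 0.62 ± 0.20 from a low level, a call lost without the Piedmontese column at 60 days or the Wagyu column at 280 days. In HOXC, HOXC5 alone of 6 genes fell under all 3 scalings, by 2.40 ± 0.30. In HOXD, 2 of 9 fell and 2 rose under all 3 scalings. HOXD10, a posterior gene used in the limb and the lumbar spinal cord, had the largest fall of the 66 genes, −6.39 ± 0.52 (adjusted p = 1.06e-08). It stood at 11.01, 5.80, 3.30 and 3.06 at the fetal ages in the Piedmontese columns and at 8.49, 4.87, 3.64 and 3.66 in the Wagyu columns, and the 12 postnatal columns lay between 2.66 and 3.72. HOXD10 was thus high at 60 days in both crosses and close to the dim end of the array from 195 days on. HOXD4 fell by 2.22 ± 0.27. Next to it in the cluster order, HOXD8 rose by 0.96 ± 0.27 and HOXD9 by 1.69 ± 0.22, and the second row of HOXD9 rose by 2.20 ± 0.25. Without the Piedmontese column at 60 days the HOXD8 value was 0.57 and its call was lost.

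**Figure D1:**
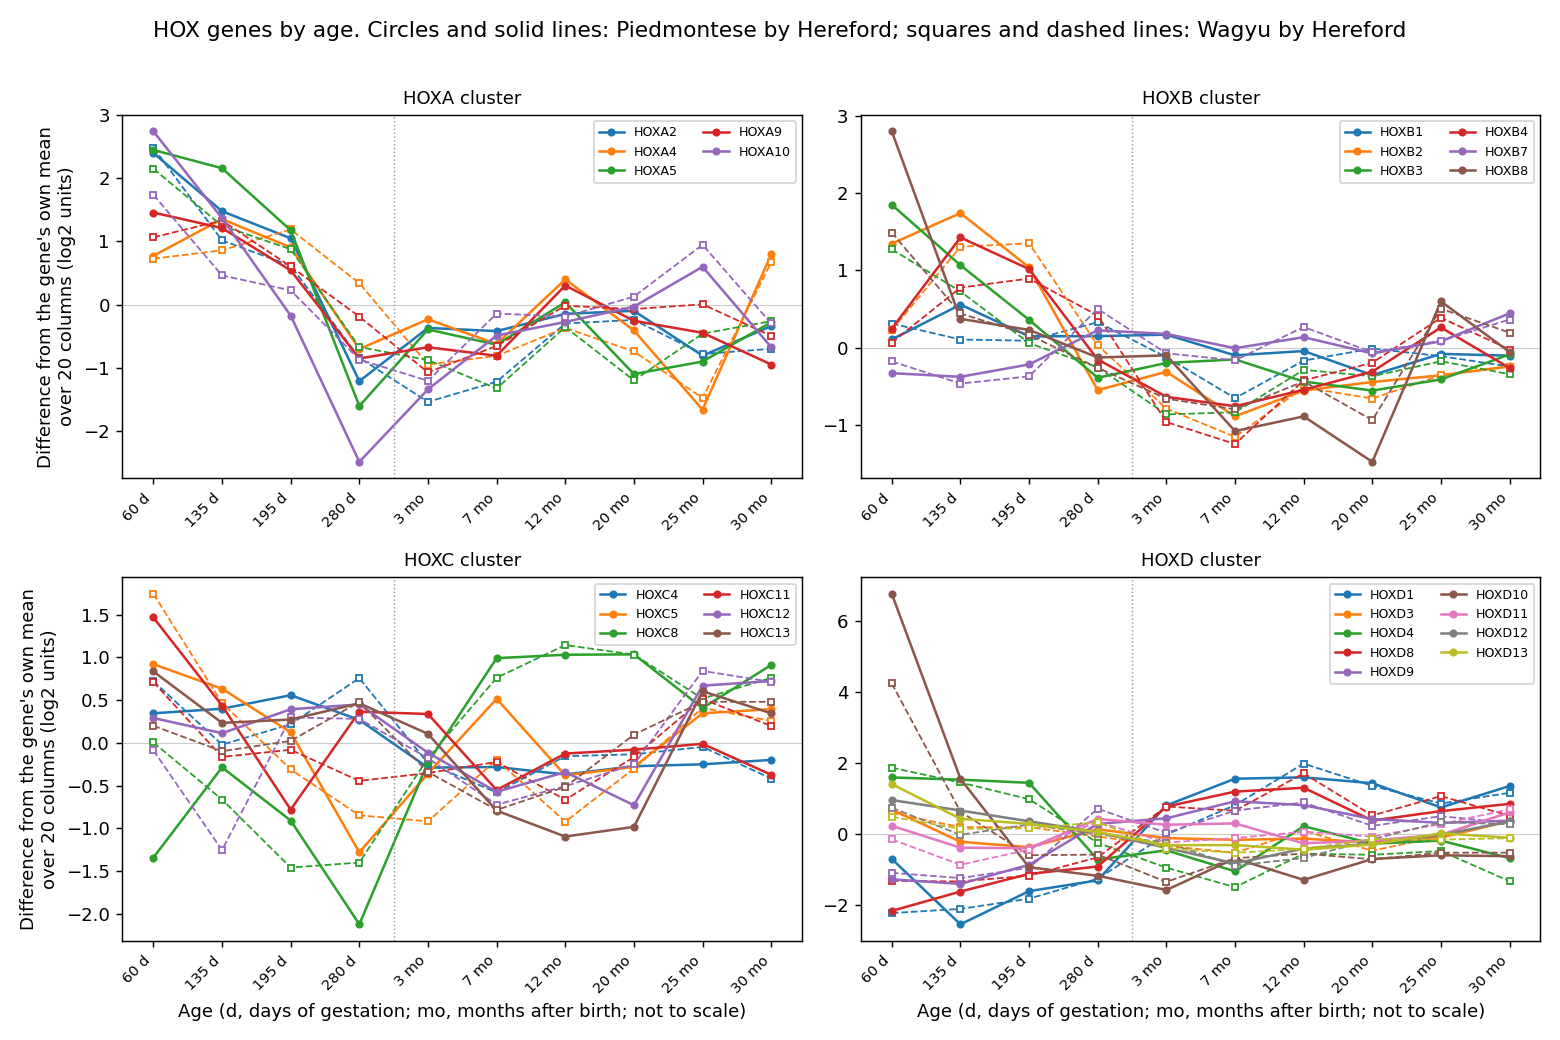
HOX genes of the 4 clusters by age, each value as the difference in log2 units from that gene's own mean over 20 columns (y axis) against age (x axis, not to scale; the dotted line marks birth). Lines start high and fall before birth for HOXA2, HOXA5, HOXA10 and HOXD10, while HOXC8, HOXD1 and HOXD8 lie above their mean from 7 months on in both crosses.

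Of the 5 genes of the MEIS and PBX group, the 3 MEIS genes fell. MEIS1, MEIS2 and MEIS3 all fell under the 3 scalings, with MEIS2 at −6.09 ± 0.47 (adjusted p = 5.20e-09). The MEIS2 values were 12.02, 9.58, 6.56 and 4.86 at the fetal ages in the Piedmontese columns and 10.72, 8.01, 7.63 and 5.71 in the Wagyu columns. They dropped at every fetal step and stayed between 4.90 and 5.94 after birth. MEIS1 fell by 2.68 ± 0.31 and MEIS3 by 2.54 ± 0.23. PBX4 changed by −0.29 ± 0.23 and was not called, and PBXIP1 fell by 1.26 ± 0.27 as deposited but by only 0.03 after centring.

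IRX6, an Iroquois homeobox gene, fell by 3.27 ± 0.28, of which 2.72 ± 0.28 came between 60 and 135 days. TBX18, which in mouse acts in the somites and in the mesenchyme of heart and ureter, fell by 2.43 ± 0.36, and TBX3, a repressor used in limb and heart, by 2.56 ± 0.39. The falls of IRX6, TBX3 and TBX18 held under all 3 scalings. Of 28 other mesenchyme factors measured outside these families, 13 fell and 3 rose (11 and 3 under all 3 scalings; median −0.45), where 42.5% and 20.7% of annotated genes did, with TWIST1 at −6.64 ± 0.31 and GLI3 at −6.07 ± 0.31 at the low end and FOXC2 at 1.02 ± 0.22 and TCF15 at 0.97 ± 0.30 at the high end. Of 16 genes of the retinoic acid pathway, whose signal switches on HOX genes in the embryo, 10 fell and 3 rose (7 and 3 under all 3 scalings; median −1.22), from CRABP1, a retinoic acid binding protein, at −12.51 to ALDH1A1, a retinal dehydrogenase, at 3.28. Of 16 Polycomb and trithorax genes, which hold HOX genes off or on, 9 fell and 4 rose (7 and 4 under all 3 scalings; median −0.85). PCGF2 changed by −4.81 and EZH2, the histone methyltransferase of Polycomb, by −3.42, while PHC2 changed by 1.71 and CBX7 by 1.11. Of 10 genes of proteins that partner these homeobox factors, 9 fell and 0 rose, which became 2 and 0 under the 3 scalings. The ends were LDB2 at −2.45 and PKNOX2 at 0.52.

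LHX1, a LIM homeobox gene of kidney and of spinal cord neurons, fell by 4.40 ± 0.81 (adjusted p = 0.000144), and its size depended on 1 column. It stood at 11.12 in the Piedmontese column at 60 days and at 6.28 in the Wagyu column, and at 4.45 or below in every column from 135 days on. Without the Piedmontese column at 60 days the fall was 2.00, and without the Wagyu column 6.80. Each of these fits leaves 1 column at 60 days, so the gap between the crosses there is not in its error. The neuron markers were higher by 4.02 on average in the same Piedmontese column. Their part in the LHX1 value was not tested. The other LHX genes were dim, and LHX9 alone of them was called between 60 and 280 days, at −0.94 ± 0.35, which became 0.29 after centring.

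The largest rise was that of PAX2, a paired box gene known for the kidney, the ear and the eye nerve. PAX2 stood at 1.17, 2.94, 5.71 and 8.06 at the fetal ages in the Piedmontese columns and at 2.10, 3.14, 5.50 and 7.88 in the Wagyu columns. It rose at each fetal step in both crosses and kept between 7.57 and 8.40 in the 12 postnatal columns. The change to 280 days was 6.33 ± 0.29 (adjusted p = 6.27e-12). Its starting values of 1.17 and 2.10 were close to the dim end of the array, as were the next values of 2.94 and 3.14. In the Piedmontese and Wagyu columns of the earliest age the medians were 7.36 and 7.28, and the lowest values −0.26 and 0.24. The size of the PAX2 rise thus rests in part on dim values. The RefSeq entry of the gene identifier given for the PAX2 row has the symbol PAX2, and no second row measured the gene.

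TBX15, a T-box factor that in mouse favours fast glycolytic fibres, rose by 3.94 ± 0.21 (adjusted p = 5.68e-11). It stood at 7.07, 7.08, 9.57 and 11.18 at the fetal ages in the Piedmontese columns and at 7.37, 7.42, 9.38 and 11.14 in the Wagyu columns. The level was flat from 60 to 135 days and then rose by 2.23 ± 0.21 and 1.69 ± 0.21 at the next steps. SIX3, a factor of the forebrain and eye, rose by 1.94 ± 0.26, from 4.93 and 5.11 to 7.10 and 6.82. SIX3 was measured by a second, dimmer row whose change was 0.08 ± 0.27 (adjusted p = 0.811), so the rows of SIX3 disagree, and which of them measures the gene was not tested. SOX15, a factor of satellite cells in mouse, rose by 1.85 ± 0.29. PAX5, known from B cells, rose by 1.64 ± 0.23. SOX6, which in mouse represses slow fibre genes, rose by 0.67 ± 0.27, a call that was lost without either column at 60 days and without the Piedmontese column at 280 days. TBX10, TBX21, SOX14 and PITX1 also rose, by 1.15, 0.97, 0.86 and 0.60. TBX10 stood at 0.72 and lost its call without the Piedmontese column at 60 days, and PITX1 lost its call without either Piedmontese column. Of 8 myogenic regulators measured beside them, 5 fell and 3 rose (4 and 3 under all 3 scalings), with MYF5 at −4.54 and MYF6 at 5.83 at the ends.

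Of the other genes, 15 fell on the deposited values but not under all 3 scalings, by 0.61 (HOXD3) to 1.47 (SIX5). They were HOXA4, HOXB2, HOXC8, HOXC11, HOXD3, HOXD12, HOXD13, LHX9, PAX8, PAX9, PBXIP1, SIX2, SIX5, SOX18 and TBX19. The 22 that were not called lay between −0.69 (TBX22) and 0.44 (PITX3). They were HOXB1, HOXB4, HOXC4, HOXC12, HOXC13, HOXD1, HOXD11, LHX5, LHX6, LHX8, PAX1, PBX4, PITX3, SIX4, SOX7, SOX17, SOX30, TBX2, TBX4, TBX5, TBX20 and TBX22.

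**Figure D2:**
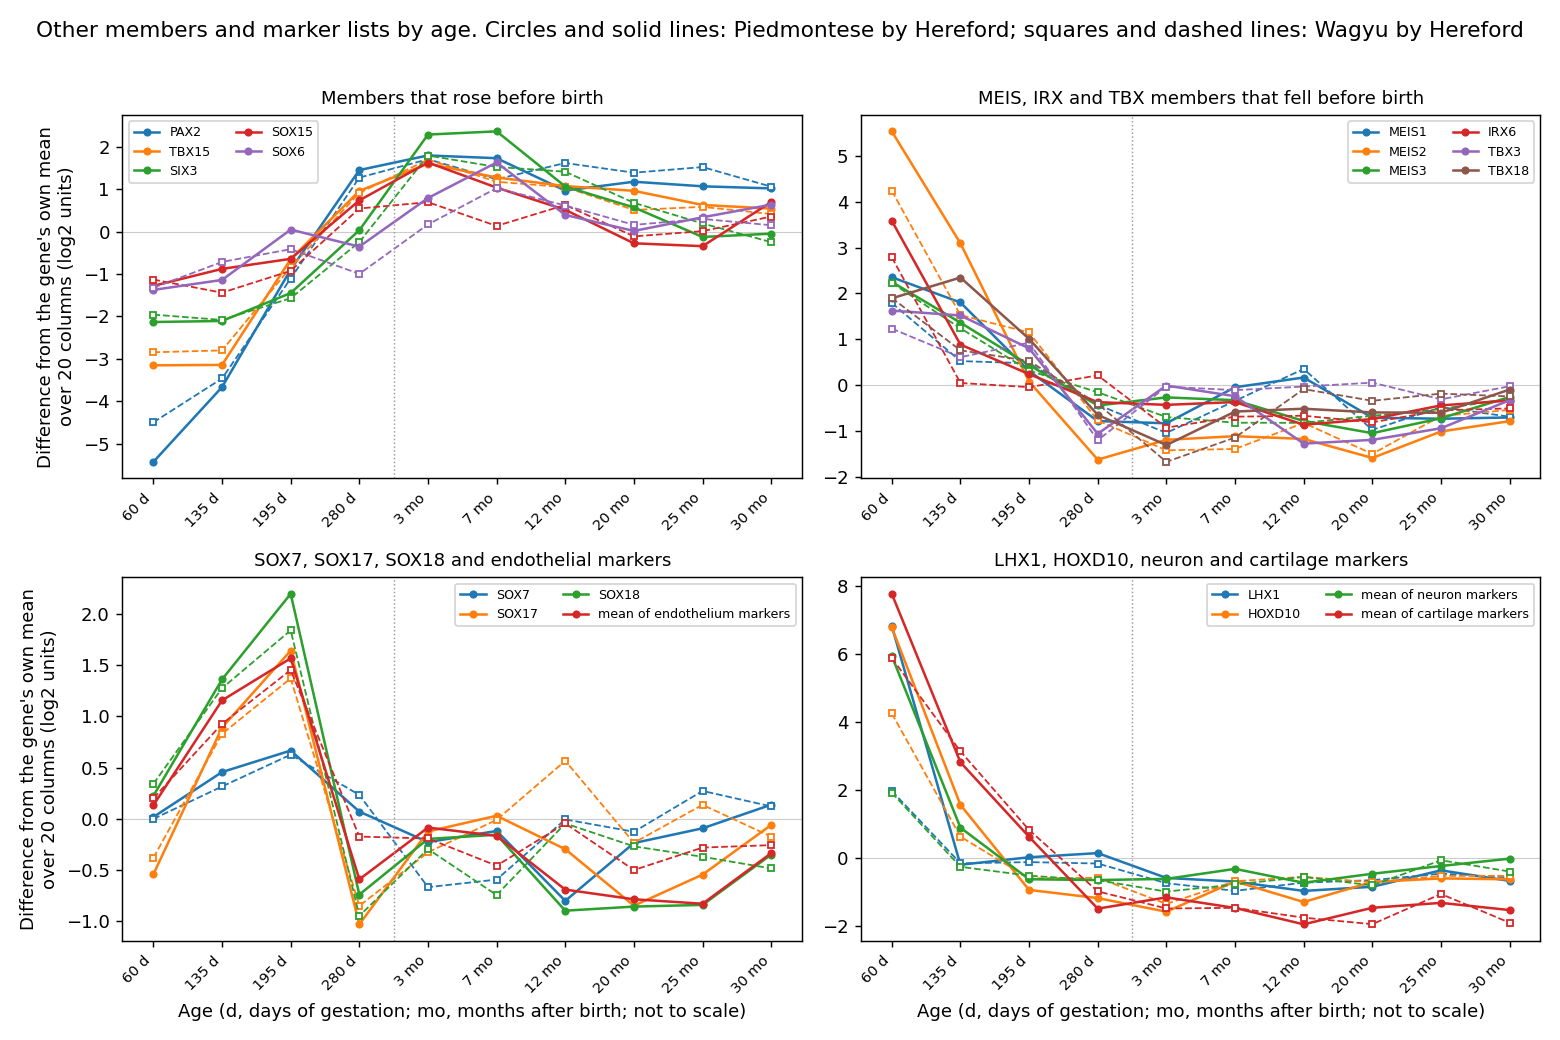
Members outside the HOX clusters and the mean of marker lists by age, each as the difference in log2 units from its own mean over 20 columns (y axis) against age (x axis, not to scale; the dotted line marks birth). PAX2 climbs at each fetal step in both crosses, and SOX17 and SOX18 peak at 195 days together with the endothelial markers. At 60 days LHX1 is high in the Piedmontese column with the neuron markers.

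Within gestation the changes came at different steps. From 60 to 135 days 13 genes fell and 4 rose, against 11.2% and 9.32% of annotated genes. From 135 to 195 days 4 fell and 3 rose, against 10.1% and 6.09%. From 195 to 280 days 20 fell and 11 rose, against 35.3% and 15.8%. LHX1, HOXD10, IRX6 and MEIS2 had the largest falls of the first step, while HOXA5, HOXA2, HOXD4, SIX5 and TBX3 fell by 1.70 to 2.16 at the last step and were not called at the first, apart from HOXA2, which had fallen by 1.20 ± 0.29. PAX8, a gene of thyroid and kidney, fell by 1.63 ± 0.24 and 0.89 ± 0.24 and then rose by 1.09 ± 0.24.

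SOX7, SOX17 and SOX18, which act in the lining of blood vessels, were highest of the fetal ages at 195 days, as were PBXIP1, SIX5, TBX19 and LHX6 by their age means. SOX18 stood at 12.03, 13.17, 14.01 and 11.06 in the Piedmontese columns and at 12.14, 13.08, 13.65 and 10.85 in the Wagyu columns. SOX17 stood at 7.16, 8.60, 9.35 and 6.67 and at 7.32, 8.54, 9.08 and 6.85. Both were highest at 195 days in both crosses and lowest of the fetal ages at 280 days. SOX17 rose by 1.33 ± 0.27 and SOX18 by 1.04 ± 0.29 from 60 to 135 days, and from 195 to 280 days they fell by 2.45 ± 0.27 and 2.87 ± 0.29 (adjusted p = 9.60e-07 and 3.60e-07), the falls holding under all 3 scalings. SOX7 was also highest at 195 days, at 5.59 and 5.55, and its steps were not called. The mean of 7 endothelial markers was 9.25, 10.1, 10.6 and 8.70 at the same ages, also highest at 195 days, and their part in the change was not tested.

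Around birth, 3 months minus 280 days, 11 genes fell and 7 rose, where 14.6% of annotated genes fell and 15.9% rose. Under all 3 scalings 10 fell and 6 rose, against 13.4% and 14.8%. Fetal and postnatal samples lay on different slides, so birth and slide cannot be told apart. SIX3 rose by 2.15 ± 0.26 on its brighter row, and its dim row stood at −0.04 ± 0.27. HOXD1 rose by 1.68 ± 0.36, from 7.17 and 7.22 to 9.29 and 8.46. HOXD8 rose by 1.56 ± 0.27 and HOXC8 by 1.56 ± 0.34, and the second row of HOXC8 rose by 1.17 ± 0.34. SOX6 rose by 1.16 ± 0.27 and TBX3 by 1.11 ± 0.39, and the TBX3 call was lost with any 1 of the 4 columns left out. PITX1, a hindlimb factor, fell by 1.33 ± 0.21, from a mean of 6.05 over the crosses to 4.72. SIX5 fell by 1.20 ± 0.24, PAX5 by 1.15 ± 0.23 and PITX3, a factor of muscle differentiation, lens and midbrain, by 0.90 ± 0.24. In every fit with 1 of the 4 columns left out, SIX3, HOXD1, HOXD8, HOXC8, PITX1, SIX5 and PAX5 kept their calls. The count of rises went from 7 to 4 without the Piedmontese column at 3 months, and that of falls from 11 to 4 and 3 without the Wagyu columns at 280 days and 3 months.

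The mean of the 6 postnatal ages was compared with that of the 4 fetal ages. Here 38 genes were lower and 12 higher after birth, where 50.9% of annotated genes were lower and 24.4% higher. Under all 3 scalings 20 were lower and 12 higher, against 28.3% and 24.2%. The stages lay on different slides, so stage and slide cannot be told apart, here or for the genes named below. HOXA and HOXB differed from HOXC and HOXD in their counts: under all 3 scalings 8 of 11 HOXA and HOXB genes were lower and 1 higher, while 2 of 15 HOXC and HOXD genes were lower and 5 higher. The difference between these counts was not tested, since the genes of a cluster are neighbours and not independent. Dim rows have less room to fall, and the clusters differed in them: 0 of 5 HOXA, 3 of 6 HOXB, 3 of 6 HOXC and 3 of 9 HOXD genes had means in the lowest 25% of rows. Among the higher HOXC and HOXD genes was HOXD11, a dim row at 0.27, which lost its call in 12 of 20 fits with 1 column left out. By place in the cluster, paralogs 1 to 4 had 6 of 10 lower and 1 higher, paralogs 5 to 8 had 2 of 6 lower and 3 higher, and paralogs 9 to 13 had 2 of 10 lower and 2 higher. Of paralogs 9 to 13, HOXC11, HOXC12, HOXC13, HOXD10, HOXD11 and HOXD12 had dim means.

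HOXD1 was higher after birth by 2.84 ± 0.16 (adjusted p = 5.18e-11). Its 8 fetal columns ran from 5.93 to 7.78 with a median of 6.76, and its 12 postnatal columns from 8.46 to 10.46 with a median of 9.74, so that the stages did not overlap. HOXD8 was higher by 2.16 ± 0.12, with fetal columns from 6.39 to 7.90 and postnatal columns from 8.94 to 10.27, again without overlap. The share of annotated genes without overlap was not counted. HOXC8 was higher by 1.70 ± 0.15, and its second row by 1.29 ± 0.15. HOXD9 was higher by 1.22 ± 0.10. HOXD1, HOXD8 and HOXD9 lie in the same cluster as HOXD4 and HOXD10, which were lower after birth by 1.64 ± 0.12 and 2.06 ± 0.24.

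Outside the HOX clusters PAX2 was higher after birth by 3.40 ± 0.13, TBX15 by 2.41 ± 0.10 and SIX3, on its brighter row, by 2.40 ± 0.12. The dim row of SIX3 stood at 0.03 ± 0.12. SOX6 was higher by 1.30 ± 0.12, SOX15 by 1.04 ± 0.13 and SIX4, a muscle precursor factor, by 0.40 ± 0.13. SIX5 was lower by 2.28 ± 0.11 (adjusted p = 4.98e-12). Its 8 fetal columns ran from 8.02 to 10.14 with a median of 9.64 and its 12 postnatal columns from 6.74 to 7.40 with a median of 6.99, with no overlap. The stages did not overlap either for HOXC4, HOXD13 and LHX1, which were lower after birth by 0.68 ± 0.11, 0.68 ± 0.11 and 1.73 ± 0.37. As no share of annotated genes without overlap was counted, the lack of overlap is not read as particular to these genes. After centring HOXC4 and HOXD13 stood at −0.05 and −0.06 and were not called. MEIS2 was lower by 2.75 ± 0.22, the largest drop of the 66, and MEIS3 by 1.51 ± 0.10. TBX18 was lower by 1.54 ± 0.17, TBX19 by 1.13 ± 0.09 and SOX18 by 1.16 ± 0.13. PITX3, among the brighter rows, ran from 12.46 to 13.82 before birth and from 11.92 to 13.04 after it, was lower by 0.67 ± 0.11 as deposited, and by 0.05 after centring.

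**Figure D3:**
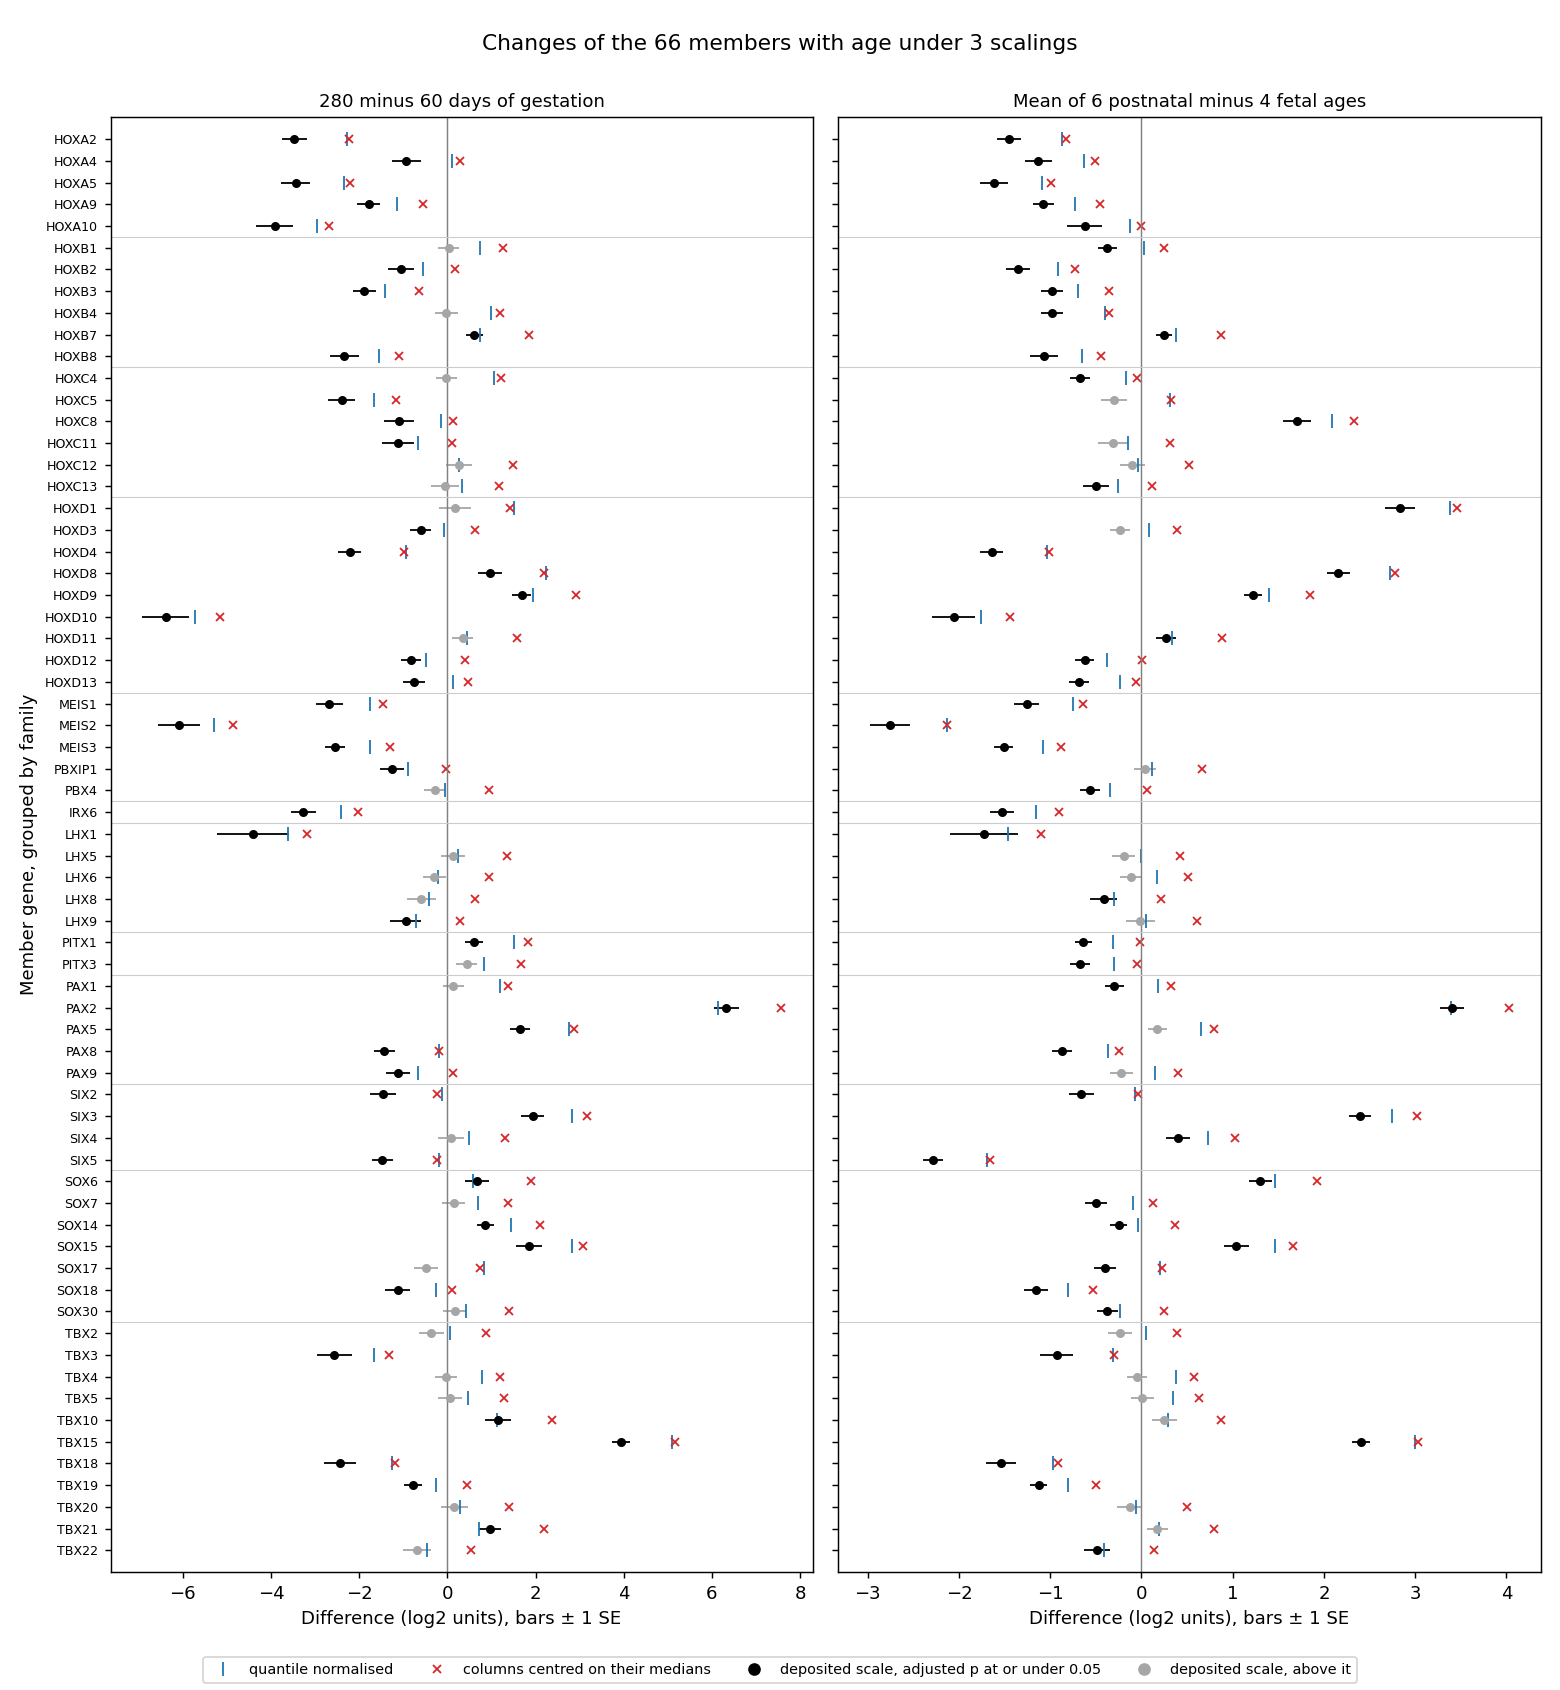
All 66 genes by family (y axis) with the difference in log2 units (x axis) for 280 minus 60 days (left) and for the postnatal minus the fetal mean (right). Dots with bars are the deposited values ± 1 SE, black where called, and ticks and crosses are the quantile normalised and centred values; PAX2 and TBX15 lie to the right and MEIS2 and HOXD10 to the left under all 3 scalings, while many smaller changes cross 0.

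From 3 to 30 months 10 genes rose and 3 fell, where 17.4% of annotated genes rose and 3.70% fell. Fitted on the postnatal ages alone, 22 rose. Under all 3 scalings 7 rose and 3 fell, against 11.0% and 3.63%. Samples of 3 and of 30 months lay on different slides, so age and slide cannot be told apart. PBXIP1 rose by 1.91 ± 0.27 (adjusted p = 0.000250), from 13.07 and 12.70 at 3 months to 14.82 and 14.77 at 30 months. SIX3 fell by 2.19 ± 0.26 on its brighter row, from 9.36 and 8.86 to 7.02 and 6.82, while its dim row stood at 0.64 ± 0.27. TBX15 fell by 1.17 ± 0.21, from 11.82 and 11.92 to 10.76 and 10.64. These 3 were the genes that kept their calls with any 1 of the 4 columns left out. PAX9, a gene of vertebral precursors, rose by 1.35 ± 0.27, TBX18 by 1.32 ± 0.36, SIX2 by 1.07 ± 0.30 and HOXC8, on the deposited values but not under all 3 scalings, by 1.04 ± 0.34. The count of rises went from 10 to 2 without the Piedmontese column at 30 months and to 1 without either Wagyu column.

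HOXA4 rose by 1.32 ± 0.33 between 3 and 30 months, and this came at the last step. It stood at 8.71 and 8.90 at 25 months and at 11.17 and 11.04 at 30 months, a rise of 2.30 ± 0.33 (adjusted p = 0.00105). The level at 25 months was the lowest of all ages in both crosses, and no other gene of the 66 was called at this step. From 7 to 12 months HOXD4 was the gene called, with a rise of 1.11 ± 0.27, and from 3 to 7 and from 12 to 20 months limma called 0 genes. From 20 to 25 months HOXB8, TBX20, PAX9, HOXC12, TBX21 and LHX5 rose by 0.89 to 1.76 and 0 fell, where 7.94% of annotated genes rose and 0.256% fell. HOXB8 and PAX9 kept the call under all 3 scalings. All 6 rows were dim, and the samples of 25 and 30 months lay on other slides than those of 3 to 20 months, so age and slide cannot be told apart here.

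Piedmontese minus Wagyu over the 10 ages gave 0 calls among the 66 genes with limma, in either direction, where 0.0706% of annotated genes were higher and 0.177% lower in the Piedmontese cross. With limma's trended prior the count was also 0, and 3 genes had an unadjusted p under 0.05. With no differences at all, a share of about 0.05 of genes would do so, and none of the 3 was called. The 3 were SIX2, HOXA2 and HOXD4. SIX2 stood at −0.37 ± 0.13 (lower in the Piedmontese at 8 of 10 ages). HOXA2 stood at 0.30 ± 0.13 (higher at 7) and HOXD4 at 0.28 ± 0.12 (higher at 8). Of them HOXA2 was picked for naming after its value was seen. Nor was the cross difference called as differing between fetal and postnatal ages for any of the 66. Among annotated genes 0.0177% were called in each direction. Of the 66, 3 had an unadjusted p under 0.05, to which the same chance share applies.

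The gap between the crosses reached 1 in either direction for 8 of the 66 genes (12.1%) at 60 days, with 1 column per cross and no test, and for 0 to 4 at each other age. Among annotated genes it did so for 5.53% at 60 days, and for more, 10.5%, at 280 days. LHX1 was higher in the Piedmontese column by 4.85, HOXD10 by 2.53, HOXD1 by 1.53, HOXB8 by 1.31, MEIS2 by 1.30, HOXB2 by 1.12 and HOXA10 by just over 1, and HOXC8 was lower by 1.35. A gap as large as that of HOXD10 was found in 0.900% of annotated genes. By place in the cluster, 9 of 10 genes of paralogs 9 to 13 were higher in the Piedmontese column (median 0.51). Of paralogs 5 to 8 it was 2 of 6 (median −0.49), and of paralogs 1 to 4 it was 6 of 10 (median 0.07). Over annotated genes the median was −0.19, and the share of them higher in the Piedmontese column was not counted. HOXC11, HOXC12, HOXC13, HOXD10, HOXD11 and HOXD12 had dim means, though HOXD10 was bright at 60 days. Genes of a cluster are neighbours and not independent, and these counts were not tested. At 135 days TBX18 was higher in the Piedmontese column by 1.59, MEIS2 by 1.56, HOXC12 by 1.37 and MEIS1 by 1.28. Before birth the dyes were unbalanced, with 2 Piedmontese samples in Cy3 and 1 in Cy5 at 60 days and the reverse at 135 days, and the neuron and muscle fibre markers differed between the same columns. The parts of dye and tissue makeup in these gaps were not tested.

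**Figure D4:**
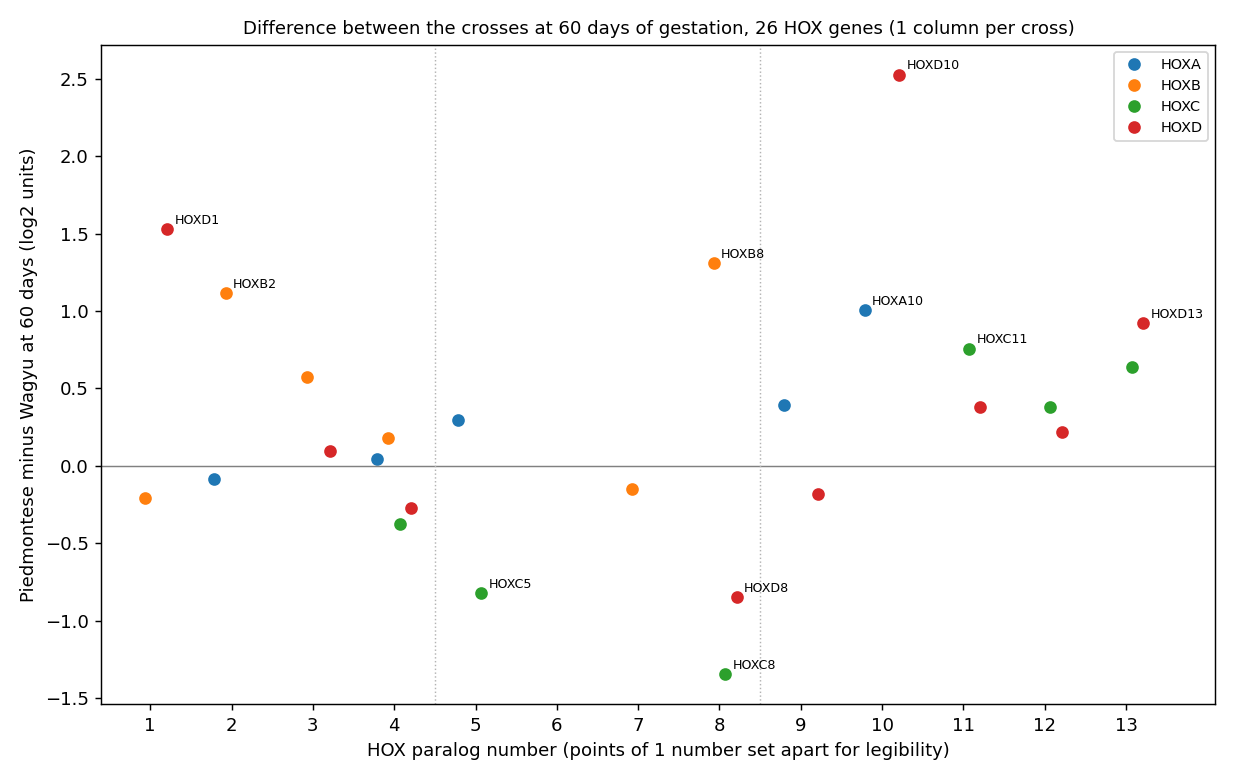
Piedmontese minus Wagyu at 60 days of gestation in log2 units (y axis) for the 26 HOX genes by paralog number (x axis), coloured by cluster, with 1 column per cross and no error. Nearly all of the genes with numbers 9 to 13 lie above 0, up to HOXD10 at 2.53, and HOXC8 is the lowest at −1.35.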

How the data were processed

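RNA of 72 animal-by-age samples was hybridised to two-colour Agilent arrays, 36 arrays on 9 slides, and every array paired the crosses at one age in opposite dyes. Feature Extraction 8.5.1.1 read the scans, per the submitters' processing notes. The authors deposited 1 column per cross and age in what is read here as log2 units. The base of the logarithm, the normalisation and how animals were combined are not stated in the labels or files, so differences are not given as folds. The number of arrays limits the precision.

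Models were fitted to all 21475 rows with limma 3.58.1 in R 4.3.3 (lmFit, eBayes with a constant prior, two-sided) with a term for each of 10 ages and a term for cross, with Benjamini-Hochberg adjustment across rows. The p-values treat columns as independent. The cross difference by stage was fitted on 10 Piedmontese minus Wagyu values, a single value for each age. Tables and figures used Python 3.11.15, pandas 2.3.3, numpy 2.4.6 and matplotlib 3.10.9. The fit was tested on simulated data. Alternatives were quantile normalisation, centring, the lowest 25% of rows left out, a trended prior, averaged rows and each column left out. Fits on fetal or postnatal ages alone, with stage in place of age and, for the cross difference, without age terms were also made.

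The members, gene lists, comparisons and rule for naming genes were chosen with earlier results of these data known. The text names up to 10 called genes in each direction with the largest changes of the same sign in both crosses (for the cross difference, at 8 or more ages), up to 2 genes at each end of a family or list, and a fixed set of factors with known roles in muscle, cartilage, nerve sheath or vessels. Symbols come from the platform annotation, in which 12276 rows carry 1 symbol and 9199 none. RefSeq gave the same symbol for the gene identifier of 65 of the 66 genes and HOXD13 was not matched, and for the 54 whose accession RefSeq lists it was the same for all 54.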

Additional observations from a re-analysis of the deposited data

Results flagged for a closer look

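For each of the 66 genes the difference between the crosses, Piedmontese minus Wagyu, was set against itself over the 10 ages, and 5 genes had 1 age far from the other 9. Chance flags about 1 in 20 such sets where the spread is the same at all ages. It was not: the standard deviation of the gap over annotated genes was 0.59 at 60 days and 0.51 at 135 days. After birth it lay between 0.28 and 0.37, so the rate of chance flags is not known here. LHX1 stood at 4.85 at 60 days, with −0.24 to 0.31 at the other ages. HOXD10 stood at 2.53 at 60 days, with −0.74 to 0.93 elsewhere, and HOXD13 at 0.92, with −0.27 to 0.29 elsewhere. TBX18 stood at 1.59 at 135 days, with −0.43 to 0.57 elsewhere. HOXC12, a dim row, stood at 1.37 at 135 days, with −0.48 to 0.38 elsewhere. In the same columns the neuron markers were higher in the Piedmontese by 4.02 on average at 60 days and by 1.15 at 135 days, and the muscle fibre markers stood at −1.36 and −2.25 by the same difference. The embryonic muscle markers stood at −1.20 and −1.97. The cartilage markers stood at 1.89 at 60 days and −0.32 at 135 days, and at 135 days the adipocyte markers stood at 1.13 (5 of 5 higher in the Piedmontese) and the smooth muscle and pericyte markers at 1.06 (4 of 4). Their part in these gaps was not tested.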

How the results depend on the processing

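Counts depended on scaling. After quantile normalisation the prenatal change had 24 genes higher and 18 lower and the postnatal change 9 lower. After centring, the prenatal change had 36 higher and 16 lower, the birth change 19 lower, the postnatal change 6 lower and the postnatal minus fetal mean 30 higher and 20 lower. With postnatal ages alone 22 genes rose from 3 to 30 months. With fetal ages alone 38 of the 44 prenatal calls held and 6 were lost. With dim rows left out of the fit, 39 genes were called for age, and 39 also with dim genes left out of the count, an alternative chosen after seeing the data, since fewer genes were counted. Leaving out 1 column gave 59 to 62 genes called for age, 9 to 12 higher and 26 to 28 lower before birth, 4 to 7 higher and 3 to 10 lower at birth, 1 to 11 higher and 2 lower from 3 to 30 months, and 11 to 12 higher and 37 to 41 lower for the postnatal minus fetal mean. It gave 0 for the cross difference and for its difference by stage. Of the genes called, 32 of 44 kept their call in each such fit for the prenatal change, 7 of 18 at birth, 3 of 13 from 3 to 30 months and 45 of 50 for the postnatal minus fetal mean, and 0 changed sign.

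The sign of some small changes turned with the scaling, and the cause was not tested. For the prenatal change after quantile normalisation HOXA4 stood at 0.11 and HOXD13 at 0.14. After centring HOXA4 stood at 0.30, HOXB2 at 0.18, HOXC11 at 0.10, HOXC8 at 0.14, HOXD12 at 0.40, HOXD13 at 0.48, HOXD3 at 0.62, LHX9 at 0.29, PAX9 at 0.12, SOX18 at 0.10 and TBX19 at 0.45. For the postnatal minus fetal mean after quantile normalisation HOXB1 stood at 0.0321, PAX1 at 0.18 and SOX17 at 0.21. After centring HOXB1 stood at 0.25, HOXC13 at 0.12, HOXD12 at 0.0012, LHX8 at 0.21, PAX1 at 0.32, PBX4 at 0.058, SOX14 at 0.37, SOX17 at 0.22, SOX30 at 0.25, SOX7 at 0.13 and TBX22 at 0.14. No paired analysis was possible because each cross and age has 1 column, other than the pairing of the crosses by age, which the model holds as its age terms. With stage in place of those terms the cross difference again had 0 genes called. For 22 genes the mean lay in the lowest 25% of rows, though HOXD10 and LHX1 among them were bright at 60 days.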
